A study of Mus musculus with 11 samples.

Results

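Colq and 6 other genes of acetylcholine signalling (Ache, Bche, Prima1, Chrm2, Chrm3 and Musk) were followed in lung mesenchymal cells of mice that had undergone pneumonectomy (PNX), in which lung tissue is removed by surgery. The 7 genes were taken by symbol from a table of 24411 genes, and 5 of them (Colq, Bche, Chrm2, Chrm3 and Musk) had enough reads to enter the 16011 genes tested. The values by which the members were chosen are not stated in full. Colq is treated here, as an assumption, as chosen by its fold change between PNX and sham at day 14. Differences that compare day 14 libraries are therefore described for the members with no test, and only PNX against sham at day 7 is tested. If day 7 values also entered the choice, the day 7 test, calls and lack of overlap of Colq are not independent of it. The other 6 are genes of the same pathway.

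Acetylcholine acts on muscarinic and nicotinic receptors and is broken down by cholinesterases. ColQ is the collagen-like tail that ties acetylcholinesterase to the basal lamina, the sheet of matrix under cells, where it also binds perlecan and the receptor kinase MuSK. The cholinesterases are acetylcholinesterase (Ache) and butyrylcholinesterase (Bche), and PRiMA (Prima1) is the membrane anchor that serves in nerve tissue where ColQ serves in muscle. In the lung, acetylcholine from airway nerves contracts smooth muscle through the M3 receptor (Chrm3), while the M2 receptor (Chrm2) dampens cyclic AMP signalling. MuSK is known as the organiser of the nerve-muscle synapse.

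Cells negative for EpCAM, CD45 and CD31 were sorted from lungs of C57BL6 mice, a gate set against epithelial cells, leukocytes and endothelial cells, and their RNA was sequenced. The groups were PNX at day 7 (3 libraries), sham surgery at day 7 (3 libraries), PNX at day 14 (3 libraries) and sham surgery at day 14 (2 libraries). The labels give no age or sex and do not state that each replicate came from its own animal. The p-values therefore rest on a spread that may be partly technical. Levels are CPM, the read counts of a gene scaled to a common library size with TMM factors, which are set so that most genes do not shift between libraries.

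Total counts ran from 2963341 to 7614122 after PNX and from 4082935 to 8362119 after sham at day 7, and from 4733716 to 7895688 after PNX and from 2539628 to 9008592 after sham at day 14. All 8 mesenchymal markers, among them Col1a1, Col3a1 and Pdgfra, had counts in every library. Their summed level was 8228 CPM in sham day 14 replicate 1 and 15676 to 26810 CPM in the other 10 libraries. That library also held the highest level of olfactory and vomeronasal receptor genes, 1584 CPM as a share of total counts, against 89.0 to 1180 CPM in the others; lung mesenchyme does not normally express these genes. PNX day 7 replicate 2 and sham day 7 replicate 2 came next in that background. Marker RNA of cells outside the gate also varied: at day 7 the summed level was 729 to 2218 CPM after PNX and 125 to 13003 CPM after sham for 8 epithelial genes, 101 to 167 CPM after PNX and 106 to 671 CPM after sham for 10 leukocyte genes, and 136 to 1263 CPM after PNX and 229 to 666 CPM after sham for 8 endothelial genes. The sum of 7 erythroid genes, whose cells the gate does not name, was larger still, at 3747 to 24180 CPM after PNX and 5012 to 17829 CPM after sham at day 7, and 257 to 79896 CPM after PNX and 3035 to 23519 CPM after sham at day 14. At day 14 the sum was 7762 to 17733 CPM after PNX and 3043 to 13343 CPM after sham for the epithelial genes, 291 to 718 CPM after PNX and 644 to 812 CPM after sham for the leukocyte genes, and 409 to 779 CPM after PNX and 414 to 585 CPM after sham for the endothelial genes. PNX and sham overlapped in each of these sums on both days, and their part in the results was not tested.

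Colq was lower in every PNX library than in any sham library of the same day. At day 7, Colq stood at 5.95, 4.15 and 5.78 CPM in the PNX libraries, against 11.5, 49.4 and 24.6 CPM in the sham libraries. The PNX libraries lay close together, and the sham libraries were spread over a wide range, with replicate 2 highest. The group means were 5.29 ± 0.99 CPM after PNX and 28.5 ± 19.2 CPM after sham (SD, n = 3 each). The log2 fold change of Colq at day 7 was -2.41 ± 0.47 (SE), a 5.30-fold lower level, with a 95% interval of -3.39 to -1.42 on the log2 scale. It did not pass the threshold of 0.05 (adjusted p = 0.0606 by edgeR's quasi-likelihood test with Benjamini-Hochberg adjustment over all genes tested). That fit takes its spread from all 11 libraries, those of day 14 included, where the pooled SD of Colq was 0.34 on the log2 scale against 0.76 at day 7. Fitted on the day 7 libraries alone, the value was -2.39 ± 0.53 (adjusted p = 0.123 by edgeR). Of the lower genes, 7 had a smaller p at day 7.

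None of the 5 tested members passed at day 7 with edgeR, where 0.0375% of all tested genes passed as higher and 0% as lower. At an unadjusted p under 0.05, 1 of the 5 was lower, Colq, and 0 were higher, beside 8.07% of all tested genes lower and 4.66% higher. DESeq2 called 1 of the 4 members to which it gave an adjusted p, Colq as lower, beside 2.72% of all genes with an adjusted p lower and 1.1% higher. Colq was also the only tested member whose PNX and sham libraries did not overlap at day 7, as was the case, in the lower direction, for 9.57% of all tested genes (9.95% in the higher). Without sham day 7 replicate 2 the log2 fold change of Colq was -1.80 ± 0.46 (adjusted p = 0.102 by edgeR), and without the 3 libraries of highest receptor background it was -1.64 ± 0.51 (adjusted p = 0.217).

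**Figure D1:**
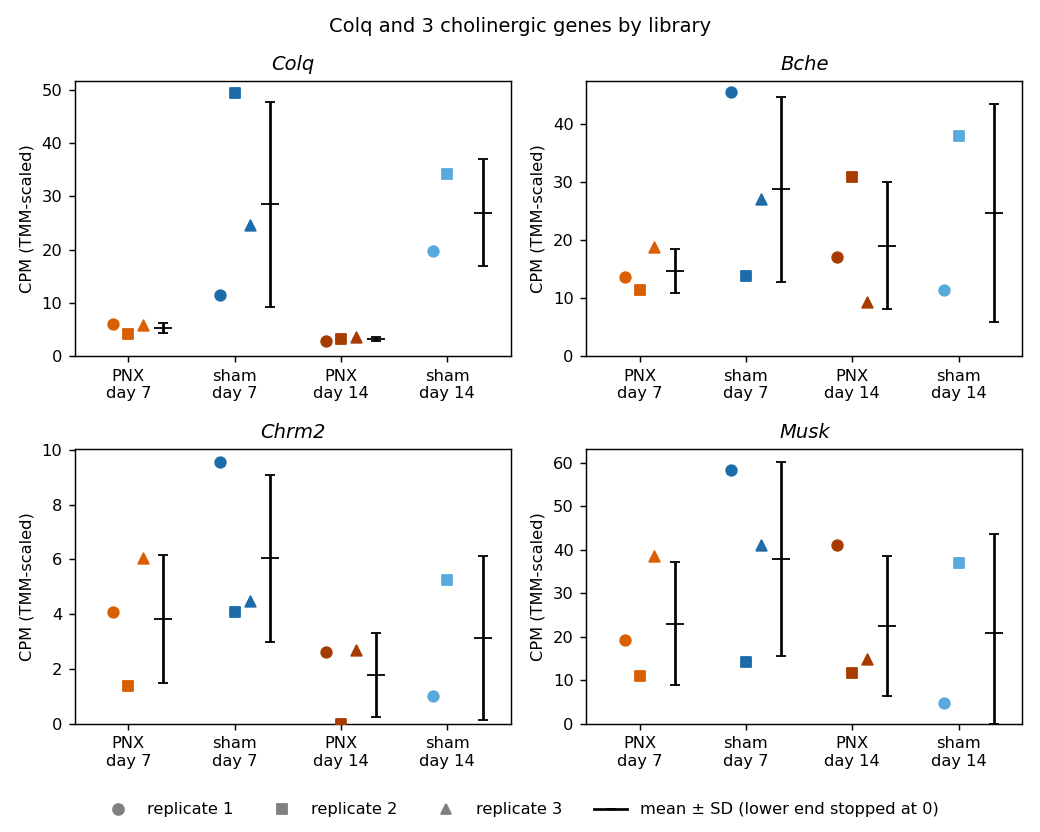
CPM (TMM-scaled, vertical axis) of Colq, Bche, Chrm2 and Musk in each of the 11 libraries, by surgery and day (horizontal axis); marker shapes are replicates, and bars are mean ± SD. Colq lies between 2.80 and 5.95 CPM in the 6 PNX libraries and between 11.5 and 49.4 CPM in the 5 sham libraries, while PNX and sham overlap for the other 3 genes.

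Day 14 is the contrast on which Colq is taken to have been chosen. There, Colq stood at 2.80, 3.14 and 3.596 CPM in the PNX libraries, against 19.8 and 34.2 CPM in the sham libraries. The means were 3.18 ± 0.40 CPM after PNX (SD, n = 3) and 27.0 ± 10.1 CPM after sham (SD, n = 2), and the log2 fold change was -3.09 ± 0.52, an 8.52-fold lower level. Groups did not overlap in this direction for 8.28% of all tested genes, and the edgeR test called 0.00625% of genes as higher and 0% as lower at day 14. Left-out libraries moved the value to -2.49 ± 0.61 (sham day 14 replicate 2) or -3.43 ± 0.57 (sham day 14 replicate 1). In bulk RNA, fewer cells that express Colq and less Colq RNA per cell cannot be told apart.

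Between days, the log2 difference of Colq for day 14 against day 7 was -0.06 ± 0.49 in sham libraries, with a 95% interval of -1.09 to 0.96. In PNX libraries the difference was -0.75 ± 0.49. The PNX effect at day 14 less that at day 7 was -0.69 ± 0.69 on the log2 scale. These values share libraries with the day 14 contrast and are given as a description.

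Colq lies on mouse chromosome 14 (31523082 to 31591343, minus strand, mm10; GENCODE M21) and is protein coding. Its exons overlap those of the annotated gene Gm49387 on the same strand, which was not analysed here, so the counts of Colq could include reads that belong to it. Gm49387 reaches across the next gene, Hacl1, an enzyme gene of fatty acid oxidation in peroxisomes. Hacl1 stood at 17.0, 14.1 and 28.7 CPM after PNX and at 30.1, 14.0 and 21.3 CPM after sham at day 7, with a log2 fold change of -0.12 ± 0.38 (adjusted p = 0.921 by edgeR). At day 14 its log2 difference was 0.18 ± 0.42. The Hacl1 levels of PNX and sham overlapped on both days.

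**Figure D2:**
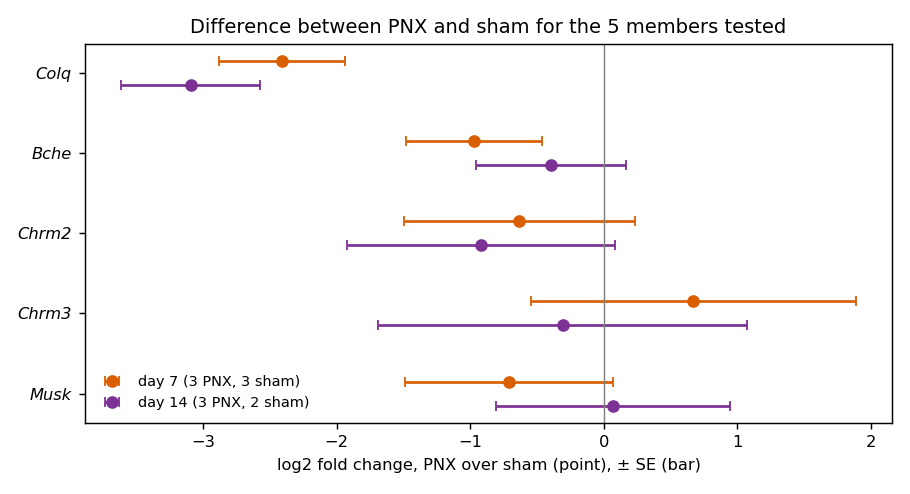
Log2 fold change of PNX over sham (horizontal axis; points, with bars for ± SE) for the 5 members tested (vertical axis) at day 7 and day 14. Colq lies at -2.41 ± 0.47 at day 7 and -3.09 ± 0.52 at day 14, and the other 4 members lie between -0.97 and 0.67.

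The genes whose levels over the 11 libraries were most like those of Colq, among 12536 compared, were Fgfr4, a growth factor receptor gene (Pearson r of log2 CPM 0.96), the amino acid transporter gene Slc7a10 (0.96), the chemokine gene Cxcl14 (0.94), the transcription factor gene Klf15 (0.91) and Adrb3, a beta-adrenergic receptor gene (0.91). The libraries share surgery, day and sort, and r is given as a measure of likeness only. Among the 6 PNX libraries alone, r with Colq was 0.73 for Fgfr4, 0.29 for Slc7a10, -0.21 for Cxcl14, 0.64 for Klf15 and 0.07 for Adrb3, below the r over all 11 libraries for each of the 5 genes. Fgfr4 at day 7 averaged 7.99 ± 0.93 CPM after PNX and 22.4 ± 10.7 CPM after sham (SD, n = 3 each). Slc7a10 averaged 11.01 ± 3.28 CPM after PNX and 36.1 ± 10.8 CPM after sham at day 7. Both genes were picked for likeness to Colq over PNX and sham libraries together. Their lower means after PNX follow from that choice and are not a separate result.

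Both Fgfr4 and Slc7a10 belong to the list of 12 markers of alveolar fibroblasts, the fibroblasts of the alveolar wall. The summed level of the list was 3419 to 4168 CPM after PNX and 5582 to 7756 CPM after sham at day 7, and 3778 to 6664 CPM after PNX and 6817 and 10470 CPM after sham at day 14. No marker of the list was at 0 in any library. All 12 were lower after PNX at day 7, 0 of them past the threshold by edgeR (median log2 fold change -0.88, against 0.03 over all tested genes, of which 7731 of 16011 were lower). At an unadjusted p under 0.05, 7 of the 12 were lower, beside 8.07% of all tested genes, and DESeq2 called 2 of the 12 as lower (Itga8 and Slc7a10), beside 2.72%.

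Set against that sum, Colq stood at 1.54, 1.21 and 1.39 CPM per 1000 CPM of the markers in the PNX libraries of day 7, and at 1.49, 8.05 and 4.42 in the sham libraries. On this scale the groups overlapped at day 7, through sham replicate 1. At day 14 the values were 0.62, 0.47 and 0.95 after PNX and 2.91 and 3.26 after sham, with no overlap. Against the mesenchymal marker sum, Colq stood at 0.25 to 0.37 CPM per 1000 CPM after PNX and 0.58 to 3.04 after sham at day 7, with no overlap, and PNX and sham were also apart against the sums of smooth muscle genes (1.68 to 2.84 after PNX and 3.74 to 22.9 after sham) and pericyte genes (7.94 to 14.4 after PNX and 29.6 to 143 after sham). They overlapped against the sums of adventitial fibroblast genes (0.39 to 0.72 after PNX and 0.57 to 5.21 after sham) and mesothelial genes (1.57 to 3.49 after PNX and 3.12 to 51.1 after sham). In both sums the overlap came through sham replicate 1. At day 14 PNX and sham were apart against the adventitial sum (0.15 to 0.26 after PNX, 2.52 and 2.73 after sham). They were also apart against the mesothelial sum (1.07 to 1.34 after PNX, 26.4 and 14.2 after sham) and the mesenchymal, smooth muscle and pericyte sums. The part of the alveolar fibroblast share in the level of Colq was not tested.

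**Figure D3:**
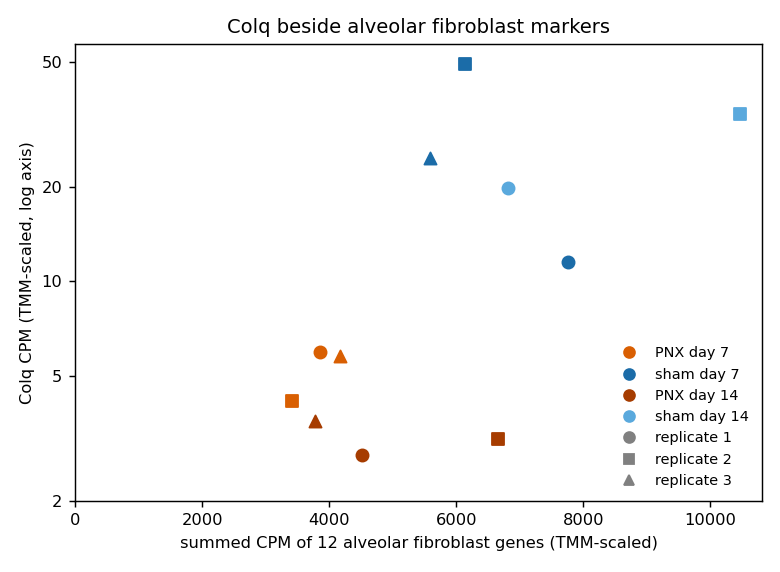
Colq CPM (vertical axis, log scale) against the summed CPM of 12 alveolar fibroblast genes (horizontal axis) in each of the 11 libraries, coloured by group, with marker shapes for replicates. The 3 PNX libraries of day 7 lie at 3419 to 4168 CPM of marker RNA and the 3 sham libraries at 5582 to 7756 CPM, and sham day 7 replicate 2 holds the highest Colq level.

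Of the esterases, Bche carried most of the reads. It lies on chromosome 3 (73635808 to 73708415, minus strand) with no overlapping gene. At day 7, Bche stood at 13.6, 11.4 and 18.8 CPM after PNX, against 45.4, 13.7 and 27.0 CPM after sham. The groups overlapped, since sham replicate 2 lay within the PNX range. The log2 fold change was -0.97 ± 0.51, with a 95% interval of -2.05 to 0.10 (adjusted p = 0.457 by edgeR), which does not show that the groups were alike. At day 14, Bche stood at 17.0, 30.8 and 9.22 CPM after PNX and at 11.4 and 37.9 CPM after sham, a log2 difference of -0.40 ± 0.56 that was 0.89 ± 0.71 without sham replicate 2.

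Ache, the enzyme that ColQ anchors, had few reads. It lies on chromosome 5 (137287519 to 137294466, plus strand), and its exons overlap the antisense gene Gm42456. Ache had 4, 4 and 2 counts after PNX and 2, 5 and 4 after sham at day 7, then 5, 0 and 1 after PNX and 10 and 3 after sham at day 14, 40 in all. The highest count came from sham day 14 replicate 1, the library of highest receptor background. Per kilobase of exon, Ache stood below the mean of 1421 receptor genes in 2 of the 11 libraries, with a median ratio of 1.51 to it and a highest ratio of 6.17 in sham day 7 replicate 3.

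Prima1, the anchor of cholinesterase in membranes, lies on chromosome 12 (103196908 to 103242150, minus strand). It had at most 2 counts in any library and 10 in all, with 0 in 4 libraries. A count of 0 allows up to 3 counts, or 0.83 CPM in PNX day 7 replicate 2, the shallowest of those 4, by counting error alone. No difference in Ache or Prima1 could be seen at this depth, and no fold is given for either.

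**Figure D4:**
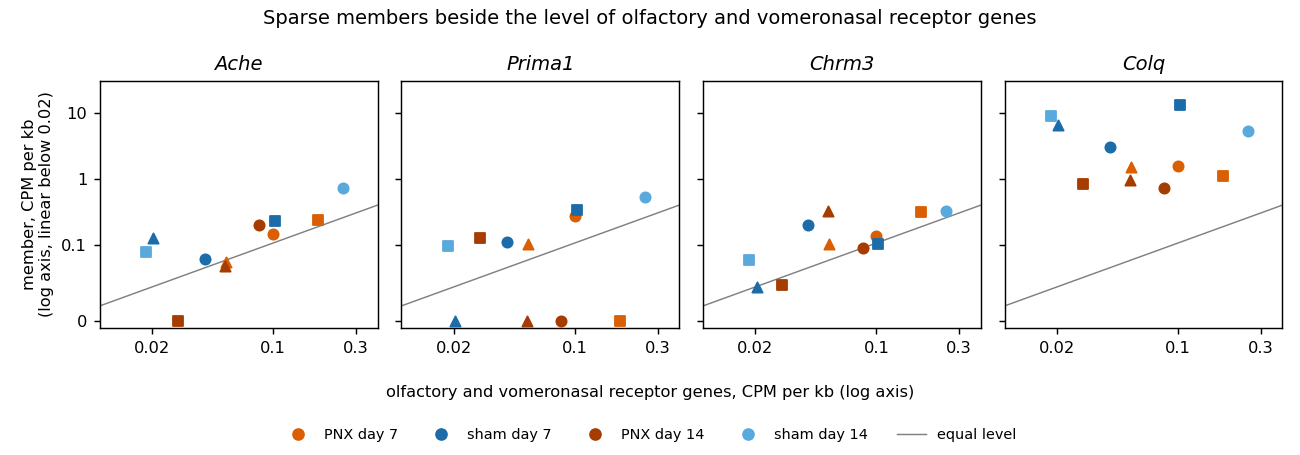
Levels of Ache, Prima1, Chrm3 and Colq in CPM per kilobase (vertical axis, log scale that is linear below 0.02) against the mean of 1421 olfactory and vomeronasal receptor genes in the same library (horizontal axis, log scale); the line marks equal levels. The highest ratios to the line are 6.17 for Ache, 5.28 for Prima1 and 6.14 for Chrm3, with medians of 1.51, 2.12 and 1.36, while Colq lies 6.01 to 487 times above it, with a median of 28.5.

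Of the muscarinic receptors, Chrm2 was measured at low counts. It lies on chromosome 6 (36388084 to 36528414, plus strand), and its exons overlap the antisense gene 9330158H04Rik. At day 7, Chrm2 stood at 4.08, 1.38 and 6.04 CPM after PNX, against 9.56, 4.08 and 4.49 CPM after sham (log2 fold change -0.63 ± 0.87, 95% interval -2.45 to 1.19, adjusted p = 0.818 by edgeR). The groups overlapped, and replicate 2 was lowest on both sides. At day 14 it stood at 2.61, 0 and 2.70 CPM after PNX and at 1.01 and 5.25 CPM after sham. PNX replicate 2 had no count, where 3 counts would be 0.47 CPM. The log2 difference at day 14 was -0.92 ± 1.00, and 0.89 ± 1.49 without sham replicate 2.

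Chrm3, the receptor through which acetylcholine contracts airway smooth muscle, lies on chromosome 13 (9875486 to 10360847, minus strand). It had 5, 7 and 5 counts after PNX and 9, 3 and 1 after sham at day 7, and 3, 1 and 9 after PNX and 6 and 3 after sham at day 14. Its level per kilobase was a median of 1.36 times that of the receptor genes, with a highest ratio of 6.14 in PNX day 14 replicate 3, and its log2 fold change at day 7 was 0.67 ± 1.21 (adjusted p = 0.860 by edgeR). Markers of smooth muscle, by contrast, had counts for all 10 genes of the list in every library, and summed to 2098 to 2466 CPM after PNX and 2152 to 3085 CPM after sham at day 7.

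Musk had the most reads of the 7 members, 1897 in all. It lies on chromosome 4 (58285960 to 58374303, plus strand) with no overlapping gene. At day 7, Musk stood at 19.4, 11.1 and 38.7 CPM after PNX, against 58.5, 14.2 and 41.0 CPM after sham. In both groups replicate 2, a library of high receptor background, was the lowest. The log2 fold change was -0.71 ± 0.78, with a 95% interval of -2.43 to 1.02 (adjusted p = 0.775 by edgeR). At day 14, Musk stood at 41.0, 11.6 and 14.8 CPM after PNX and at 4.70 and 37.0 CPM after sham. Its log2 difference was 0.07 ± 0.88 and moved to 2.38 ± 1.13 without sham replicate 2, to -0.73 ± 0.87 without sham replicate 1 and to -0.70 ± 0.85 without PNX replicate 1. Neither its size nor its sign at day 14 held across these fits.

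Markers of skeletal muscle, the tissue in which Musk is best known, were low. The summed level of 11 such genes was 11.9 to 24.9 CPM after PNX and 12.9 to 18.7 CPM after sham at day 7, and 12.6 to 14.2 CPM after PNX and 10.1 and 26.5 CPM after sham at day 14. Among them Ckm, the creatine kinase of muscle, stood at 0 to 1.41 CPM, and the myosin gene Myh4 was at 0 in 3 libraries. Markers of heart muscle were led by Actc1 (68.2 to 241 CPM), followed by Myl7 (8.16 to 31.6 CPM) and Tnnt2 (6.52 to 26.0 CPM). Myl4 stood at 2.11 to 5.18 CPM, Tnni3 at 1.12 to 7.39 CPM and Sln at 0.56 to 9.74 CPM. Myh6 was at 0.28 to 5.37 CPM and Nppa at 0 to 1.11 CPM. In the list of glia and neurons, Scn7a took 200 to 400 CPM, and the glial factor Sox10 stood at 0 to 4.03 CPM, with 2 libraries at 0.

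Musk and Chrm2 were the pair of members most alike over the 11 libraries (Pearson r of log2 CPM 0.70, as a description), followed by Musk and Bche (0.64). Colq was less like these genes, with r of 0.40 to Chrm2, 0.25 to Bche and 0.03 to Musk. Chrm2 had 3 counts in sham day 14 replicate 1, 5 in PNX day 7 replicate 2 and 0 in PNX day 14 replicate 2. Musk was also low there, at 4.70, 11.1 and 11.6 CPM in that order. Sham day 14 replicate 1 and PNX day 7 replicate 2 are libraries of high receptor background. The part of low counts and background in the r of 0.70 was not tested. The promoters of Musk and Chrm2, from RefSeq on GRCm38.p6, are shown because the levels of the pair varied together over the libraries. Each runs from 250 bases before to 50 after the annotated start, at chr4:58285712-58286011 for Musk and chr6:36387834-36388133 for Chrm2, both on the plus strand.
Musk: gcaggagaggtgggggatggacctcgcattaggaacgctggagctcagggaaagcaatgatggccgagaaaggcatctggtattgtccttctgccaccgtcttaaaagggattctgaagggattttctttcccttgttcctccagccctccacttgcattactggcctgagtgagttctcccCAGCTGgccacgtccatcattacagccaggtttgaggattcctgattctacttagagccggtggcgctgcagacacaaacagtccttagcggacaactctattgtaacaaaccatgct
Chrm2: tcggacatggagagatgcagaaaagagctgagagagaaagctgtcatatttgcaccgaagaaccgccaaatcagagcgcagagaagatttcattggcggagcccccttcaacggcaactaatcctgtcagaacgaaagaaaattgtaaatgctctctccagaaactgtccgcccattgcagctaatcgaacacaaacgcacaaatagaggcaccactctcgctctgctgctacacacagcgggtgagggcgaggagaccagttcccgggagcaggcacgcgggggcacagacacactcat
Capitals mark CAGCTG, a form of the E-box that muscle transcription factors bind. It was searched on both strands, which read alike, and is present in 16.3% of 32851 promoter windows of 300 bases. The N-box, CCGGAA or TTCCGG on the other strand, known from genes of the nerve-muscle synapse, occurs in 14.9% of windows and in neither of these. A match is a run of letters, not a measured binding site. Promoter windows were found for 6 of the 7 members: Ache, Bche, Chrm2, Chrm3, Musk and Prima1. CAGCTG occurred 1 time each in the windows of Musk and Prima1. It was absent from those of Ache, Bche, Chrm2 and Chrm3.

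Per kilobase of exon, the scale used here to rank the members by level, Musk had the highest mean at day 7. It stood at 6.10 ± 3.75 CPM per kilobase after PNX and 10.04 ± 5.91 after sham (SD, n = 3 each). Colq came next by mean in sham libraries, at 1.39 ± 0.26 CPM per kilobase after PNX and 7.50 ± 5.06 after sham. In sham day 7 replicate 2, Colq (12.99) stood above Musk (3.75). Bche followed at 2.16 ± 0.56 after PNX and 4.26 ± 2.36 after sham, then Chrm2 at 0.63 ± 0.39 after PNX and 1.00 ± 0.50 after sham. In PNX libraries Bche stood above Colq, so this order differed between the surgeries. In sham libraries the levels of Musk, Colq and Bche did not differ beyond their spread. Chrm3, Ache and Prima1 were lowest, at means of 0.11 to 0.18 CPM per kilobase in both groups, and did not differ from each other beyond their spread. At day 14, Colq stood at 0.84 ± 0.11 CPM per kilobase after PNX (SD, n = 3) and 7.10 ± 2.67 after sham (SD, n = 2), Bche at 2.82 ± 1.62 after PNX and 3.66 ± 2.78 after sham, Musk at 5.96 ± 4.27 after PNX and 5.52 ± 6.04 after sham, and Chrm2 at 0.29 ± 0.25 after PNX and 0.52 ± 0.50 after sham. By group mean, Colq was the highest member after sham at day 14 and the third after PNX. In sham day 14 replicate 2, however, Musk (9.79) stood above Colq (8.98). Colq did not differ beyond the spread from Musk or Bche in the sham libraries.

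Of the wider set of 72 acetylcholine and synapse genes in 6 lists, 71 were in the table and 57 were tested. None passed the threshold in any of the 5 comparisons: PNX against sham at either day, day 14 against day 7 after either surgery, and the difference of the PNX effects. Across all genes edgeR called at most 0.0375% in either direction at day 7, 0.00625% at day 14, 0.0187% between days after sham and 0% between days after PNX and for the difference of the effects, so a count of 0 is near that background. At an unadjusted p under 0.05, 2 of the 57 were higher and 8 lower at day 7, beside 4.66% of all tested genes higher and 8.07% lower. DESeq2 gave an adjusted p to 39 of the 57 and called 1 as higher (Slurp1) and 2 as lower (Slc44a2 and Col13a1), beside 1.1% of all genes with an adjusted p higher and 2.72% lower. The comparisons share libraries with each other and are read side by side only.

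Genes that make or carry acetylcholine and choline were split. Chat, the enzyme that makes acetylcholine, had 33 counts in all, and the choline transporter of nerve endings, Slc5a7, had 30; neither was tested. Of the 8 tested, 3 were higher and 5 lower at day 7 (median log2 fold change -0.40), against 7731 of 16011 lower over all tested genes. At an unadjusted p under 0.05, 2 of the 8 were lower, beside 8.07% of all tested genes. The choline transporter-like gene Slc44a2 stood at 92.1, 76.7 and 104 CPM after PNX and at 145, 171 and 312 CPM after sham at day 7 (-1.20 ± 0.34, adjusted p = 0.138 by edgeR). Slc22a3, an organic cation transporter, stood at 21.4, 10.5 and 27.9 CPM after PNX and at 66.1, 38.4 and 58.7 CPM after sham (-1.44 ± 0.48, adjusted p = 0.204 by edgeR). Neither gene overlapped between the surgeries at day 7, as held in this direction for 9.57% of all tested genes. At day 14 the log2 difference was 0.39 ± 0.38 for Slc44a2 and -0.95 ± 0.52 for Slc22a3. Between days after sham, Slc44a2 changed by -1.48 ± 0.40 and Slc22a3 by -0.43 ± 0.53 (log2, day 14 against day 7). The vesicular transporter Slc18a3 had at most 15 counts in a library.

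Nicotinic receptor genes were sparse, and 8 of the 10 tested were higher at day 7 (median 0.89) while 9 of 10 were lower at day 14 (median -1.11). Over all 16011 tested genes, 8279 were higher at day 7 and 8779 lower at day 14. At day 7, 0 of the 10 had an unadjusted p under 0.05, beside 4.66% of all tested genes higher and 8.07% lower. Most of the nicotinic genes had few counts. Chrna1, the muscle subunit, reached 26 counts at most, and its highest level, 8.73 CPM, was in sham day 14 replicate 1, the library of highest receptor background. That background was 0.10, 0.18 and 0.05 CPM per kilobase after PNX and 0.04, 0.10 and 0.02 after sham at day 7, and 0.08, 0.03 and 0.05 after PNX and 0.25 and 0.02 after sham at day 14. Its part in these medians was not tested. Chrnb1, the subunit with most reads, stood at 9.01, 7.20 and 10.7 CPM after PNX and at 18.6, 10.7 and 13.05 CPM after sham at day 7 (-0.65 ± 0.42, adjusted p = 0.597 by edgeR). Of the other muscarinic receptors, Chrm1 reached 15.5 CPM in the same sham library and 0.31 to 6.65 CPM elsewhere, and Chrm4 stayed at or under 10 counts.

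Among the small secreted or anchored proteins that modulate nicotinic receptors, Slurp1 had the smallest p at day 7. It stood at 181, 83.9 and 34.2 CPM after PNX, against 38.5, 17.2 and 27.1 CPM after sham (1.85 ± 0.46, adjusted p = 0.102 by edgeR). The groups overlapped by PNX replicate 3. Lynx1, a membrane-anchored member of the family, went the other way, at 23.1, 24.6 and 21.8 CPM after PNX and 27.7, 42.1 and 97.0 CPM after sham (-1.26 ± 0.39, adjusted p = 0.165 by edgeR). Lypd1 stood at 19.5, 17.2 and 27.0 CPM after PNX and at 11.5, 6.66 and 10.9 CPM after sham (1.13 ± 0.43, adjusted p = 0.262 by edgeR). At day 14 the log2 differences were 0.61 ± 0.51 for Slurp1, 0.24 ± 0.44 for Lynx1 and 0.26 ± 0.49 for Lypd1. Between days after sham, Lynx1 changed by -1.74 ± 0.46, Slurp1 by 0.64 ± 0.50 and Lypd1 by 0.18 ± 0.49 (log2, day 14 against day 7).

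The matrix partners of ColQ and MuSK were well expressed. All 13 synaptic and basal lamina genes were tested. At day 7, 4 were higher and 9 lower (median -0.37), against 7731 of 16011 lower over all tested genes. At an unadjusted p under 0.05, 4 of the 13 were lower, beside 8.07% of all tested genes. The transmembrane collagen gene Col13a1 stood at 24.1, 28.0 and 21.3 CPM after PNX and at 27.3, 76.2 and 80.6 CPM after sham (-1.33 ± 0.37, adjusted p = 0.134 by edgeR). The laminin gene Lamb2 (-1.16 ± 0.41, adjusted p = 0.226 by edgeR) and the dystroglycan gene Dag1 (-0.99 ± 0.38, adjusted p = 0.256 by edgeR) were highest in sham replicate 3, at 402 and 418 CPM. At day 14, 10 of the 13 were higher (median 0.63), against 7227 of 16011 over all tested genes. Sham replicate 1 was lowest for both Lamb2 (42.7 CPM) and Dag1 (71.2 CPM).

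Among other genes of that list, picked after their values were seen, Lrp4, the agrin receptor that works with MuSK, stood at 94.4 to 313 CPM, Agrn, which encodes agrin, at 24.7 to 62.3 CPM and Hspg2, which encodes perlecan, at 35.6 to 118 CPM over the 11 libraries. The cytoplasmic partners of MuSK were sparse, with Dok7 at 70 counts and Rapsn at 81 counts in all.

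Genes that act downstream of muscarinic receptors were all tested (19 of 19). Of these, 7 were higher and 12 lower at day 7 (median -0.16), against 7731 of 16011 lower over all tested genes. The phospholipase gene Plcb3 stood at 22.8, 34.3 and 20.2 CPM after PNX and at 25.2, 50.9 and 67.4 CPM after sham (-0.90 ± 0.38, adjusted p = 0.320 by edgeR). The G protein gene Gnai2, which couples to the M2 receptor, stood at 226, 250 and 124 CPM after PNX and at 81.9, 192 and 65.2 CPM after sham (0.82 ± 0.40, adjusted p = 0.409 by edgeR). Gna11, of the family that couples to M3, stood at 122, 93.0 and 136 CPM after PNX and at 209, 143 and 257 CPM after sham (-0.80 ± 0.45, adjusted p = 0.503 by edgeR). PNX and sham did not overlap for Gna11 at day 7, as held in this direction for 9.57% of all tested genes. At day 14 the log2 differences were -0.26 ± 0.42 for Plcb3, -0.09 ± 0.44 for Gnai2 and 0.67 ± 0.51 for Gna11. Between days after sham, they changed by -0.95 ± 0.43, 0.47 ± 0.44 and -1.06 ± 0.51 in that order (log2, day 14 against day 7).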

How the data were processed

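RNA was measured by sequencing in 11 libraries of sorted mouse lung mesenchymal cells. The deposited values are whole read counts per gene symbol made by the authors; the submitters' processing notes name mm10 as the genome build and bcl2fastq 2.20.0.422. The aligner, counting tool, annotation and strand setting are not given in the sources used here, which leaves uncertain how reads over more than 1 gene were counted.

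Differences were fitted with edgeR 4.0.16 (R 4.3.3). Its filterByExpr, given the groups, kept 16011 genes and dropped 8400. Each contrast came from 1 robust quasi-likelihood model with a mean for each of the 4 groups, TMM-scaled, over the 11 libraries, with Benjamini-Hochberg adjustment over all genes tested and a threshold of 0.05. The standard error is the absolute log2 fold change divided by the square root of F, and is approximate at low counts. Likeness used log2 CPM with a prior count of 2, for genes with a mean of at least 1, and names the 5 highest genes, predicted genes left out. Of each of 6 pathway lists the 3 genes of smallest p at day 7 are named. Exon lengths and coordinates come from GENCODE M21. Floors of 3 counts cover counting error only. DESeq2 1.42.0 and other settings are alternatives. The members and lists were chosen with earlier results of these data known. Figures were drawn with matplotlib 3.10.9.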

Additional observations from a re-analysis of the deposited data

How the results depend on the processing

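At day 7, edgeR called 0 members, and 1 (Colq) was called with DESeq2 (log2 fold change -2.41, adjusted p = 0.000628) and with no filter on low counts (-2.44, adjusted p = 0.00525); the count was 0 with RLE size factors, total counts, the replicate block, only the groups compared, and without the 3 libraries of highest receptor background. Leaving out each library in turn gave 0 to 1 calls and a Colq log2 fold change of -2.78 to -1.80 (adjusted p = 0.00424 to 0.2005 by edgeR); Colq passed without sham day 7 replicate 1 (0.00424), sham day 14 replicate 1 (0.0352) or sham day 14 replicate 2 (0.0299). Calls over all genes at day 7 were also more numerous in these 3 fits, with 39 higher and 386 lower, 27 and 56, and 26 and 68 in that order, against 6 and 0 on all libraries; over all 11 such fits they ran from 3 to 39 higher and 0 to 386 lower. The cause was not tested. At day 14 the Colq log2 difference was -3.43 to -2.49 when a library was left out. Colq was lower after PNX under every setting run at both days. At day 14 the sign of Bche and Chrm2 turned without sham replicate 2 (0.89 for both). Chrm3 turned without sham replicate 1 (1.21) or PNX replicate 2 (0.24). Musk turned negative without sham replicate 1 (-0.73) or PNX replicate 1 (-0.70), and ranged from -0.73 to 2.38 when a library was left out. Chrm3 and Musk also turned without the 3 libraries of highest receptor background (1.24 and -0.70), and Musk with the replicate block (-0.45). No sign of a tested member turned at day 7.

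Over all genes at day 7, 6 were called higher and 0 lower; with DESeq2 the counts were 132 and 325, with no filter 44 and 134, with total counts 12 and 0, with the replicate block 9 and 0, and 14 and 8 when the 3 libraries with most receptor reads were dropped. At day 14, 1 and 0 were called; DESeq2 gave 65 and 44, no filter 14 and 13, only the groups compared 20 and 32, and the replicate block 0 and 0. Leaving out 1 library gave 0 to 60 higher and 0 to 14 lower at day 14, with 60 and 14 without sham day 14 replicate 2. Scaling by total counts shifted the all-gene median by 0.18 at day 7 and -0.19 at day 14 (log2). With the replicate block the Colq log2 fold change at day 7 was -2.22 ± 0.48 (adjusted p = 0.144 by edgeR). Same-numbered PNX and sham libraries of day 7 deviated from their group means with correlations of -0.12, 0.53 and 0.34. Differently numbered libraries gave 0.21, -0.13, -0.35, -0.28, 0.40 and -0.63. With only 3 libraries in each group mean, these values cannot decide whether the numbers pair the samples. Counts limit Ache, Prima1 and Chrm3 most.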
